A study of Mus musculus with 16 samples.

Results

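The 150 genes described here were all higher in 3 of 6 RNA libraries of neonatal mouse spleen monocytes than in the other 3, across a division that does not follow the sorted groups. The count table held 25562 genes, of which 8659 had a mean of at least 10 CPM (counts scaled to a library total of 1000000). Among these 8659, 968 genes (11.2%) were higher in each of Nrp1 high replicate 2, Nrp1 low replicate 1 and Nrp1 low replicate 3 than in any of Nrp1 high replicate 1, Nrp1 high replicate 3 and Nrp1 low replicate 2. The 150 members are those with the largest log2 ratio of the mean CPM on the raised side to the mean CPM on the other side, with 1 CPM added to each. A further 1979 genes (22.9%) ran the other way, lower in each of the 3 raised libraries. With library sizes scaled by TMM, which corrects for differences in composition, 1793 genes met the rule and 1599 ran the other way, and all 150 members still met it. The members were thus chosen by their RNA levels in the same 6 libraries, so their separation is a description and carries no test.

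Both sorted fractions came from spleens of wild-type C57BL/6J mice at 7 days of age. One fraction had high and the other low Nrp1 on the surface (neuropilin-1, which binds semaphorins and vascular endothelial growth factor together with other receptors). The labels give myeloid-derived suppressor cells as the cell type, whereas the protocol speaks of monocytes, and the sources used here do not name the other markers of the gate. Each RNA library, 3 per fraction, was made from 80000 cells with a low-input kit that switches template at the end of first-strand synthesis and amplifies the cDNA by PCR. Chromatin accessibility was measured by ATAC-seq in 10 other libraries of 50000 cells, 5 per fraction, for which the protocol writes the strain as C57BL/6. It also mentions pooled RNA, and no label says that the libraries came from separate animals, so p-values below measure the spread between libraries, which may be technical.

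Library totals were 31428419, 35127433 and 26962442 counts in the raised Nrp1 high 2, low 1 and low 3, and 28866801, 28440098 and 23395363 in Nrp1 high 1, high 3 and low 2. The gene with the most counts was Lyz2, which encodes the lysozyme of monocytes and macrophages and took 2.27 to 3.88% of a library. Ly6c2, a marker of classical monocytes, stood at 1955, 1759 and 2331 CPM in Nrp1 high 2, low 1 and low 3, and at 2489, 2025 and 1666 CPM in Nrp1 high 1, high 3 and low 2, with no separation of the sides. In bulk libraries, a larger share of cells of a type and more RNA per cell cannot be told apart.

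The division of the libraries was not the second axis of the expression data. On the first principal component of log2 CPM, which held 49% of the variance, Nrp1 low 1 scored -133, Nrp1 low 3 scored -22.8 and Nrp1 high 2 scored 9.26, while Nrp1 low 2 scored 13.2, Nrp1 high 3 scored 62.6 and Nrp1 high 1 scored 71.1. The members therefore cut the first component between Nrp1 high 2 and Nrp1 low 2, whose scores were close. All 150 members loaded on its negative side, against 50.1% of all genes entered, as the rule makes likely. On the second component, with 15.8% of the variance, Nrp1 high 2 scored 74.1 and the other 5 libraries lay between -48.2 and 8.69. The members are called here by their rule, as genes raised in Nrp1 high 2, low 1 and low 3.

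The members have no single textbook function. Several serve MHC class I presentation, in which proteasomes and ubiquitin tagging supply peptides, the Tap transporter carries them into the endoplasmic reticulum, and disulfide isomerases help to load them onto class I heavy chains for display to T cells. Others belong to the phagocyte's effector equipment, such as a membrane subunit of the NADPH oxidase, to glycolysis, and to the immediate early genes that phagocytes and stressed cells switch on quickly. Monocytes of the spleen form a reserve of such cells.

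Promoter sequence was at hand in RefSeq (GRCm38.p6) for 102 of the 150 members, as 250 bases before to 50 after a start. The 6 promoters below are shown because they belong to the member with the largest ratio (Hsd3b7), to 3 members of the presentation, ubiquitin and immediate early groups (H2-D1, Ubb, Junb) and to 2 members whose start lay in a region that differed in the accessibility table (Dapk3, Rpap3). Each runs 5′ to 3′ on the gene's strand. Capitals mark matches, on either strand, to the GC box GGGCGG, the CCAAT box CCAAT and the core of the cAMP response element, TGACGT. Where the table held several starts, the one sharing most bases with the accessible region was taken.
Hsd3b7, chr7:127800359-127800658, plus strand: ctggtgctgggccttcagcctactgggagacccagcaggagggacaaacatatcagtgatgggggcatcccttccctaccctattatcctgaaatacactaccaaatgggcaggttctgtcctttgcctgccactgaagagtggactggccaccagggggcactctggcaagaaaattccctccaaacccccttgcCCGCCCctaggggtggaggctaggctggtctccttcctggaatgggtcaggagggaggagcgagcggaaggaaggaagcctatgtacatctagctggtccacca
H2-D1, chr17:35262844-35263143, plus strand: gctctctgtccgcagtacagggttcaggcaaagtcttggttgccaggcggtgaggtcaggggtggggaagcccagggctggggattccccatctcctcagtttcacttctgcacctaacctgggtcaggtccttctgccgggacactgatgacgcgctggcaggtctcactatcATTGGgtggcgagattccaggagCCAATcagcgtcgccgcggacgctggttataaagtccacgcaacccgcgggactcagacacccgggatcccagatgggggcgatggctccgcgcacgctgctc
Ubb, chr11:62550921-62551220, plus strand: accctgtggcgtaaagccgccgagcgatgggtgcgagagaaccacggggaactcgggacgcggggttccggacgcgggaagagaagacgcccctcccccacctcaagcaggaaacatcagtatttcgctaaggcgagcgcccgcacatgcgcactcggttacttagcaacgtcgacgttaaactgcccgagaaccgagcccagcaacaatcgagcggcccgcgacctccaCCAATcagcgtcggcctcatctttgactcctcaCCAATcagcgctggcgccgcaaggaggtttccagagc
Junb, chr8:84978699-84978998, minus strand: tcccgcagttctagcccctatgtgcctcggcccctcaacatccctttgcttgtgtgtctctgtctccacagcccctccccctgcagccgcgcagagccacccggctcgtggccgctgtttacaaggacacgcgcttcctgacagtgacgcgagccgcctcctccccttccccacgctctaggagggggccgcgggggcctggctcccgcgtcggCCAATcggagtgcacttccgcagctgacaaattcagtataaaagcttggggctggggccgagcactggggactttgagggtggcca
Dapk3, chr10:81182757-81183056, plus strand: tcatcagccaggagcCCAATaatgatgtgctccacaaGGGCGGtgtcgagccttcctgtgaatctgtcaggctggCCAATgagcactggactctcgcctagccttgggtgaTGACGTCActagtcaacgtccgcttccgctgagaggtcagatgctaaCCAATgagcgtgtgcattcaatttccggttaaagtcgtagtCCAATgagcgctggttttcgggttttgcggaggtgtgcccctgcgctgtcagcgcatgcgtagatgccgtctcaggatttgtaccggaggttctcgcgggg
Rpap3, chr15:97705773-97706072, minus strand: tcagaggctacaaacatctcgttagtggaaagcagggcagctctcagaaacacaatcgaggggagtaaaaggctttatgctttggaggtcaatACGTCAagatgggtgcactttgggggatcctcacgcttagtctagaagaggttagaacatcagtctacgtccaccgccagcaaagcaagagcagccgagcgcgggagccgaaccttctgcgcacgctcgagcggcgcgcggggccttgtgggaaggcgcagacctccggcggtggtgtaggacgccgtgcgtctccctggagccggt
The H2-D1 window held 2 CCAAT boxes, 1 on each strand, and the Ubb window held 2 on the gene's strand. The Dapk3 window held 4 CCAAT boxes, 1 GC box and 2 such cores that share letters within 1 complete cAMP response element. The Hsd3b7 window held 1 GC box and no CCAAT box. The Rpap3 window held 1 core of the cAMP response element. A match is a string of letters and not a shown binding site.

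In all, 22 short motifs were searched on both strands in the 102 member promoters. The CCAAT box had the widest gap between members and genes at 10 CPM or more. It occurred in 61 of the 102, 59.8% (95% exact binomial interval 49.6 to 69.4%, counting error only). The share was 39.7% of the 6849 promoters of genes at 10 CPM or more, members included, and 37.9% of all 27025 promoters. On the gene's strand alone the shares were 40.2% of member promoters and 23.8% of promoters at 10 CPM or more. The YY1 motif AAGATGG was present in 15.7% of member promoters and 8.44% of those at 10 CPM or more. The GC box was found in 65.7% of member promoters and 66.1% of those at 10 CPM or more on either strand, and in 52.0% and 44.1% on the gene's strand alone. The ETS motif CCGGAAG occurred in 16.7% of member promoters against 22.3%, and the PU.1 core AGGAAGT, read by a factor central to monocytes, in 10.8% against 10.4%. The NF-kB core GGANTTCC occurred in 2.94% of member promoters and in 6.41% of those at 10 CPM or more. The E2F motif TTCCCGC occurred in 13.7% against 9.36%, the E-box CACGTG in 14.7% against 11.1% and the response element core TGACGT in 13.7% against 13.2%, the last of these overlapping the complete element TGACGTCA at 2.94% against 3.36%. The CACCC element CCACCC was in 40.2% of member promoters and 35.5% of those at 10 CPM or more, and the TATA box TATAAA in 6.86% and 6.76%. The C/EBP motif TTGCGCAA, the GATA motif AGATAAG and the SRF core CCATATTA were in 0 of 102, which at this number allows a share of up to 3.55% (upper exact limit), and were also rare in promoters at 10 CPM or more, at 0.350%, 1.55% and 0.248%. The other 7 were AP-1 (TGANTCA), C/EBP-ATF (TGATGCAA), the ISRE core, RUNX (TGTGGTT), the MEF2 core (AAATAG), the NRF1 motif (GCGCATG) and the heat shock element core (GAANNTTC). For each of these 7, the share at 10 CPM or more lay within the exact interval of the members' share. These windows were compared as they stand, with no matching for base composition, and the members' promoters had a median GC content of 58.7% against 61.0%.

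The differences that define the members were mostly modest. The median log2 ratio over the 150 was 0.71, a 1.63-fold difference with 1 CPM added, and the median over all 8659 genes was -0.09. The ratio reached 1 in 11 members and was under 0.8 in 110. At the threshold, the last 3 members were Bcap31, Ssna1 and Plin2 at 0.61 each, and the first 3 genes outside were Exosc7, Map1lc3b and Entr1, also at 0.61. The gap between the lowest raised library and the highest of the other 3 had a median of 1.15-fold. It was under 1.1-fold in 49 members and 1.5-fold or more in 7. The median of the members' mean levels was 44.9 CPM, which is not scaled for gene length, and the lowest count of any member in any library was 33.

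Hsd3b7, which encodes an enzyme of bile acid synthesis from cholesterol, had by far the largest ratio among members (log2 ratio 2.90, or 8.10-fold without the added CPM). The gene lies on chromosome 7 at 127800609 to 127803802. It had 91.0, 107 and 46.0 CPM in Nrp1 high 2, low 1 and low 3, and 2.36, 5.20 and 22.6 CPM in Nrp1 high 1, high 3 and low 2. Nrp1 low 2 lay between the raised libraries and Nrp1 high 1 and high 3. Setd1a, a histone methyltransferase gene that ends 486 bases before Hsd3b7 begins, ran the other way in part, with 24.8, 2.90 and 13.8 CPM in Nrp1 high 2, low 1 and low 3 and 33.4, 27.2 and 22.95 CPM in Nrp1 high 1, high 3 and low 2. The part that reads shared between the neighbours had in these values was not tested.

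**Figure D1:**
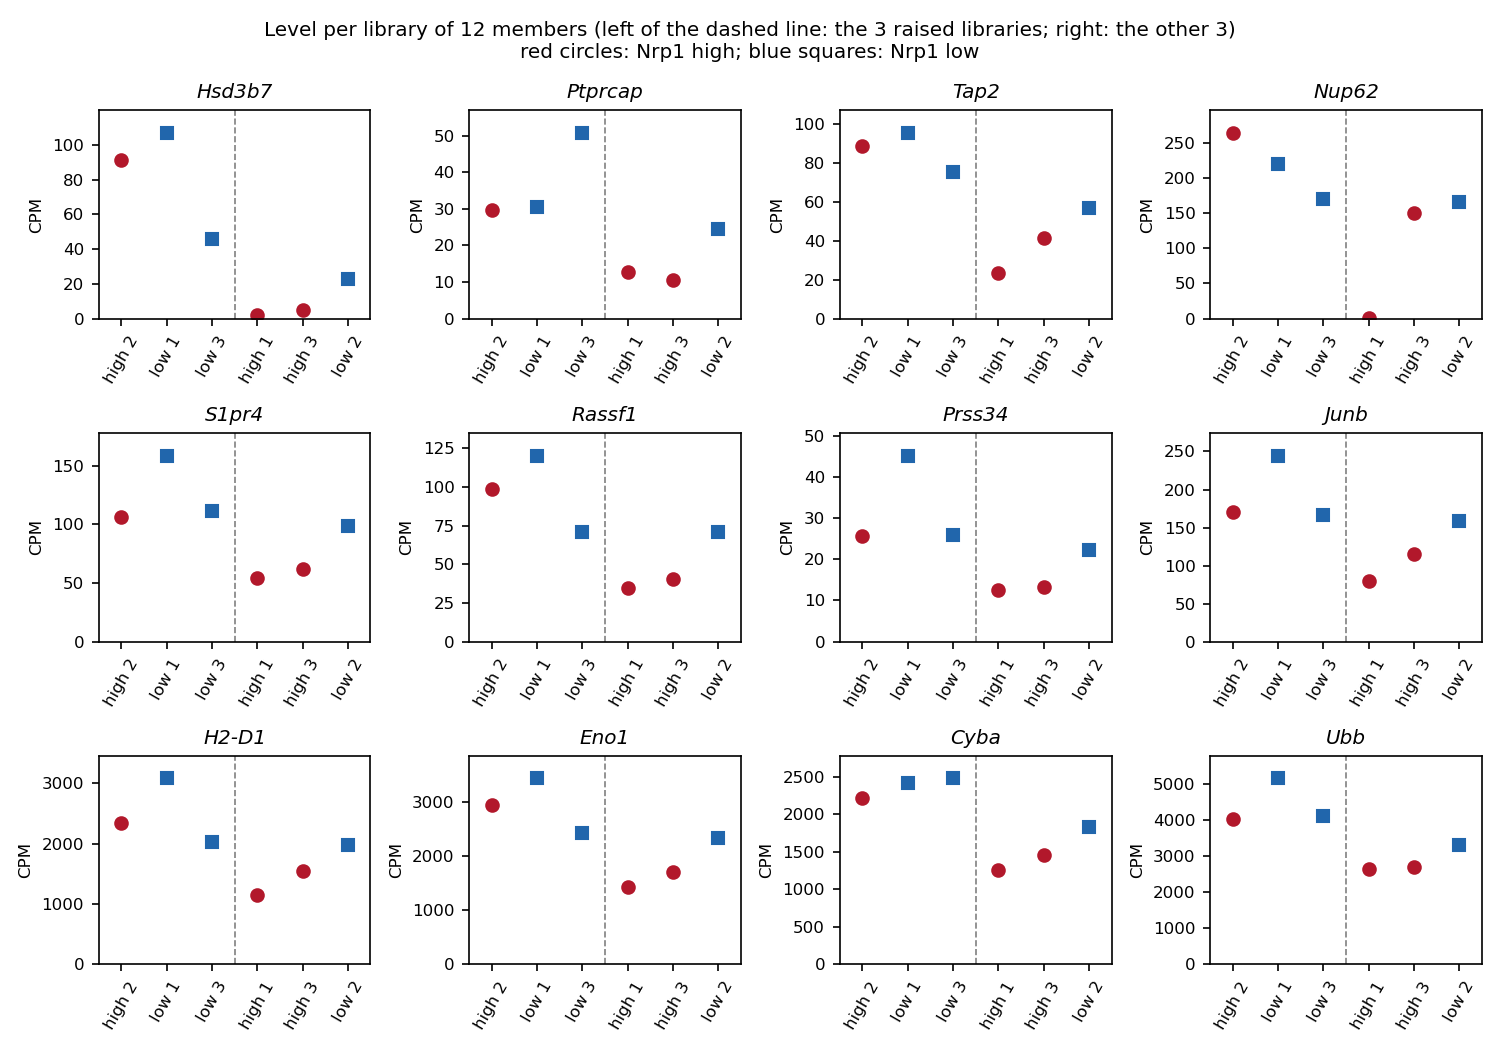
Level of 12 members in each of the 6 RNA libraries, in CPM on a linear axis from 0, with 1 point per library. The 3 raised libraries stand left of the dashed line and the other 3 right of it. Nrp1 low 2 is the highest of the right-hand libraries in each of these panels, and Nup62 is near 0 in Nrp1 high 1 alone.

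Of the members, 9 serve antigen presentation or are interferon-inducible, in groups formed after the values were seen. Their median log2 ratio was 0.81. Tap2, a subunit of the transporter that carries peptides into the endoplasmic reticulum, had 88.9, 95.6 and 75.2 CPM in Nrp1 high 2, low 1 and low 3, and 23.5, 41.3 and 57.1 CPM in Nrp1 high 1, high 3 and low 2 (log2 ratio 1.07). H2-D1, a class I heavy chain, had 2340, 3082 and 2028 CPM in those raised libraries and 1157, 1552 and 1973 CPM in Nrp1 high 1, high 3 and low 2 (log2 ratio 0.67). The raised side of H2-D1 thus began only 1.03-fold above Nrp1 low 2. H2-Q1, a nonclassical class I gene, Cfb, the complement factor B gene, and Ifit3, an interferon-induced antiviral gene, had ratios of 0.95, 0.85 and 0.84.

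A related gene overlapped between the sides for Tap2 and H2-D1, and also for Ifit3 (Ifit3b) and Tgtp2 (Tgtp1) of the same group. Tap1, the other subunit of the transporter, had 153, 85.4 and 111 CPM in Nrp1 high 2, low 1 and low 3 and 141, 153 and 126 CPM in Nrp1 high 1, high 3 and low 2, so that the sides overlapped. H2-K1, the other classical class I heavy chain, had 531, 662 and 592 CPM on the raised side and 504, 512 and 576 CPM in Nrp1 high 1, high 3 and low 2, and overlapped too. H2-D1 and H2-K1 share much sequence, and reads that fit both could be split either way in counting. In a list of 20 interferon gamma and MHC genes, 5 of the 14 at 10 CPM or more were raised and 0 lowered, with a median log2 ratio of 0.24, where 11.2% of all genes at 10 CPM or more were raised and 22.9% lowered. The 5 were H2-Ab1 and H2-DMb1 of class II presentation, the transcription factor Irf1, the immunoproteasome subunit Psmb8 and the GTPase Irgm1. Of 24 type I interferon genes, 16 were at 10 CPM or more, with Ifit3 as the 1 raised gene and Mx1, Oas3 and Ddx58 as the 3 lowered, both counts below the shares of all genes.

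Among 11 members for ubiquitin tagging, proteasome and autophagy, the polyubiquitin gene Ubb was among the 5 members over 1000 CPM. Ubb had 4038, 5148 and 4107 CPM in Nrp1 high 2, low 1 and low 3, and 2649, 2688 and 3301 CPM in Nrp1 high 1, high 3 and low 2. It encodes head-to-tail repeats of ubiquitin and is known to be induced by stress. The proteasome subunit genes Psmc4 and Psmd4, Atg101 of the complex that starts autophagy, and Sqstm1, an autophagy receptor, were members with ratios of 0.62, 0.61, 0.80 and 0.64.

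In all, 15 members act in folding, glycosylation and transport in the early secretory path. They include 3 protein disulfide isomerase genes, Pdia3, Pdia4 and Pdia6, and Rpn1 of the complex that attaches N-linked glycans. Pdia3, which also acts in class I peptide loading, had 291, 448 and 301 CPM in Nrp1 high 2, low 1 and low 3 and 165, 231 and 272 CPM in Nrp1 high 1, high 3 and low 2. In the list of 22 heat shock and unfolded protein response genes, Pdia4 was the 1 raised gene of 18 at 10 CPM or more, and Hsp90aa1 and Hsp90ab1 were the 2 lowered, both counts below the shares of all genes (11.2% and 22.9%).

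Eno1, the glycolytic enolase gene, had 2951, 3442 and 2434 CPM in Nrp1 high 2, low 1 and low 3, and 1427, 1711 and 2336 CPM in Nrp1 high 1, high 3 and low 2 (log2 ratio 0.69). Eno1b, a near copy, had 232, 248 and 132 CPM on the raised side and 73.9, 106 and 146 CPM in Nrp1 high 1, high 3 and low 2, so the split of reads between the 2 is uncertain. Of 24 genes of hypoxia and glycolysis, 22 were at 10 CPM or more. Of those, 7 were raised (Pfkl, Aldoa, Pgam1, Eno1, Pkm, Ldha and Mif), 1 was lowered (Hk1) and the median log2 ratio was 0.13. Over all genes at 10 CPM or more, 11.2% were raised and 22.9% lowered.

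Cyba, which encodes the small membrane subunit of the phagocyte NADPH oxidase, had 2222, 2419 and 2479 CPM in Nrp1 high 2, low 1 and low 3 and 1257, 1458 and 1827 CPM in Nrp1 high 1, high 3 and low 2. Its large partner Cybb ran the opposite way without overlap, at 855, 593 and 749 CPM in Nrp1 high 2, low 1 and low 3 and 1194, 1170 and 1215 CPM in Nrp1 high 1, high 3 and low 2. The 2 subunits of 1 membrane complex were thus on opposite sides of the same division. Lyz1 was a member, while its near copy Lyz2 was raised at a smaller ratio, with 31810, 38780 and 35530 CPM on the raised side and 22710, 23940 and 27940 CPM in Nrp1 high 1, high 3 and low 2. Prss34, a serine protease of basophils and mast cells, had 25.8, 45.3 and 26.0 CPM in Nrp1 high 2, low 1 and low 3 and 12.5, 13.3 and 22.3 CPM in Nrp1 high 1, high 3 and low 2.

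A group of 9 members are receptors or signalling genes of leukocytes. Ptprcap, whose product associates with CD45, had 29.6, 30.5 and 50.8 CPM in Nrp1 high 2, low 1 and low 3, and 12.7, 10.6 and 24.5 CPM in Nrp1 high 1, high 3 and low 2. Rassf1, which encodes a Ras-association protein, began only 1.005-fold above Nrp1 low 2. The others include the sphingosine-1-phosphate receptor gene S1pr4, the common cytokine receptor chain gene Il2rg, the receptor adaptor gene Tradd and the T cell kinase gene Lck.

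Of 24 immediate early genes, 17 were at 10 CPM or more, 5 of them were raised and 1 was lowered, where 11.2% of all genes were raised and 22.9% lowered. The raised genes were the AP-1 genes Fos, Jun and Junb, with Ier2 and the phosphatase gene Dusp2. Junb and Ier2 were members. Junb had 170, 245 and 167 CPM in Nrp1 high 2, low 1 and low 3, and 79.6, 115 and 159 CPM in Nrp1 high 1, high 3 and low 2. Ier2 had 332, 433 and 335 CPM in the raised libraries and 181, 199 and 296 CPM in Nrp1 high 1, high 3 and low 2. The lowered gene was Klf4, a transcription factor that the study's design text places downstream of Nrp1, with 119, 15.3 and 75.5 CPM on the raised side and 253, 241 and 126 CPM in Nrp1 high 1, high 3 and low 2.

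Nup62, which encodes a nuclear pore protein, met the rule through 1 library. It had 264, 220 and 169 CPM in Nrp1 high 2, low 1 and low 3 and 151 and 165 CPM in Nrp1 high 3 and low 2, but 1.14 CPM in Nrp1 high 1. The overlapping gene Atf5 had its highest level there, at 7.73 CPM, against 0 to 2.95 CPM in the other 5 libraries. Strand is not stated for the counting, so overlapping genes are uncertain, and 32 members overlap another gene of at least 1 CPM. The partners of those members had a positive ratio in 17 cases and a negative one in 15.

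Predicted gene models, clone names and pseudogenes made up 28 of the members. Gm10252 had the second largest ratio (1.63), with 1057, 1023 and 1093 CPM in Nrp1 high 2, low 1 and low 3 and 230, 335 and 458 CPM in Nrp1 high 1, high 3 and low 2. Of the 140 members matched to RefSeq, 13 (9.29%) were annotated as pseudogenes, against 1.69% of matched genes at 10 CPM or more. Ubb-ps had 991, 1172 and 870 CPM on the raised side and 466, 565 and 717 CPM in Nrp1 high 1, high 3 and low 2, and its parent Ubb is itself a member. Ftl1, the ferritin light chain gene whose copies Ftl1-ps1 and Ftl2-ps are members, was raised too, with a log2 ratio of 0.53. The parent of Rpl14-ps1 was not, since Rpl14 had 374, 278 and 453 CPM on the raised side and 745, 509 and 350 CPM in Nrp1 high 1, high 3 and low 2. Reads of near-identical copies cannot be assigned with certainty.

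Members were short genes, a property the rule did not use. The 140 members with coordinates spanned a median of 8444 bases on GRCm38.p6, against 21720 bases for genes at 10 CPM or more and 42360 bases for the genes that ran the other way. A span under 10 kb was found in 58.6% of members and 26.6% of genes at 10 CPM or more. Among protein-coding genes alone, the medians were 9209 bases for 125 members and 22370 bases for 8296 genes. Across 8536 genes, span and the log2 ratio had a Spearman rho of -0.41, a description across genes of the same libraries. Ordered by span in 5 bins of equal size, the median log2 ratio was 0.16 in the shortest bin and 0.10, -0.01, -0.29 and -0.63 in the bins after it. The members numbered 61, 42, 18, 10 and 9 in the same bins. With TMM-scaled library sizes, rho was -0.42. Gene span includes introns and is not the length of the mature RNA.

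**Figure D2:**
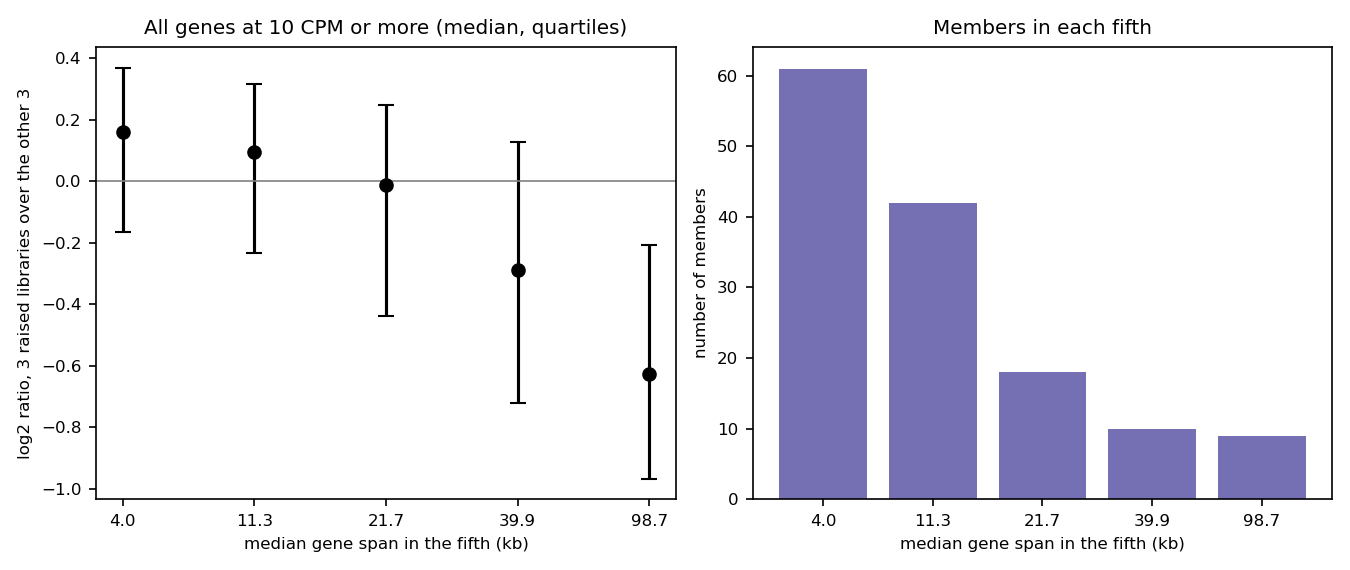
Left, median log2 ratio of the 3 raised libraries over the other 3 for all genes at 10 CPM or more, in 5 bins of gene span, with quartiles as bars. Right, number of members in each bin, with 61 in the bin of shortest genes and 9 in that of the longest.

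Counts over whole functional lists stand against 11.2% raised and 22.9% lowered of all genes at 10 CPM or more, with a median log2 ratio of -0.09. All list counts and these shares use column totals. With TMM-scaled library sizes, 1793 genes were raised and 1599 lowered, and the median over all genes was 0.07. In the cytoskeleton and motility list, 7 of 19 genes were raised (Pfn1, Cfl1, Tmsb4x, Arpc1b, Capg, Coro1a and Lsp1). The 6 lowered genes of that list were Actg1, Vasp, Myh9, Tln1, Flna and Msn. Of 30 nuclear genes of oxidative phosphorylation, 12 were raised and 0 lowered, with a median log2 ratio of 0.28, although none was a member. Of 15 mitochondrially encoded genes, 0 were raised and 12 lowered, with a median of -1.09. Lysosome and cathepsin genes were raised in 7 of 24 and lowered in 2. Chromatin and splicing regulators were raised in 0 and lowered in 13 of 24, with a median of -0.91. Ribosomal protein genes were raised in 0 and lowered in 7 of 31, a lowered share close to that of all genes, with a median of -0.64. In all, 9 of 46 lists held 10 members between them.

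**Figure D3:**
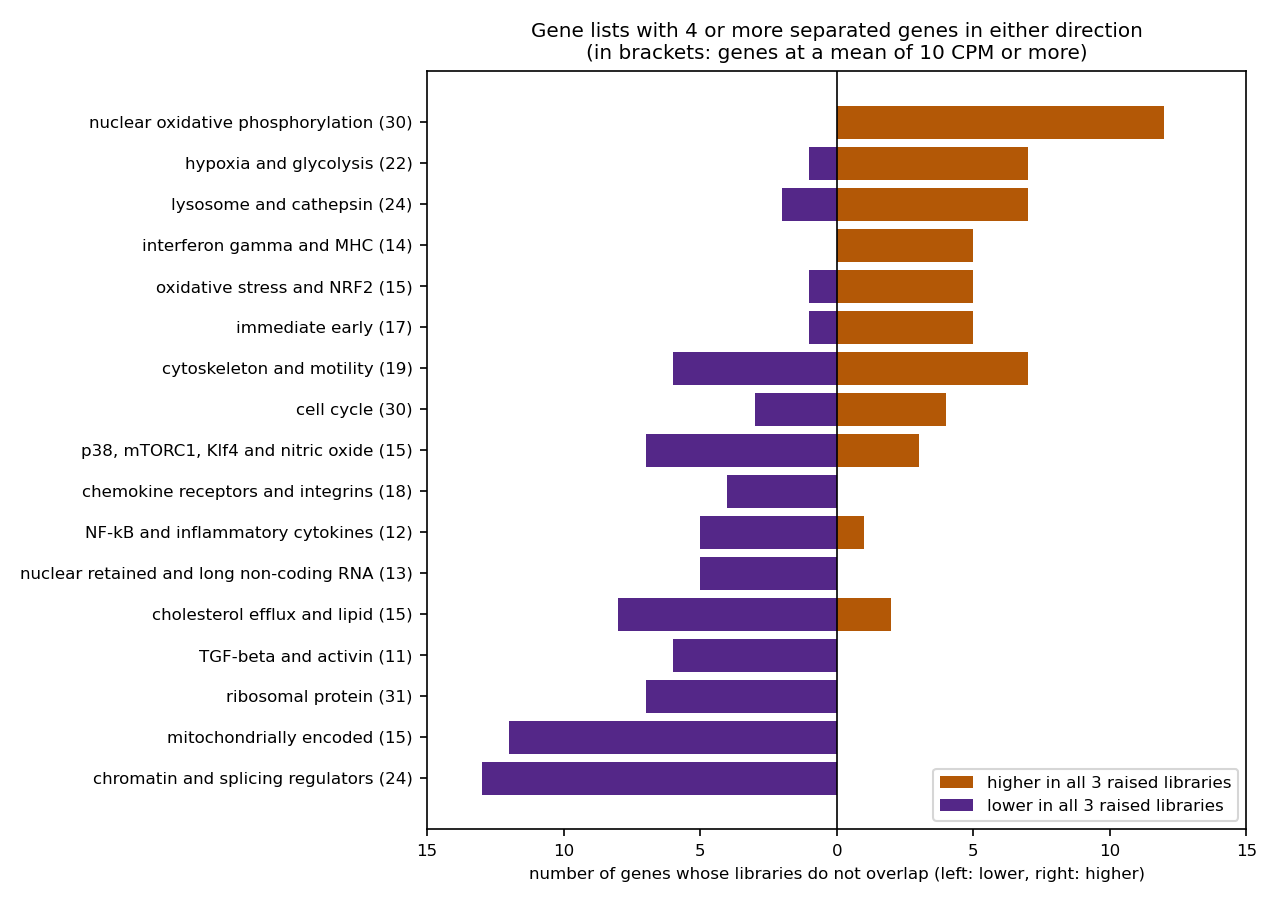
Number of genes in each list that were higher in all 3 raised libraries (right) or lower in all 3 (left), for the lists with at least 4 such genes in either direction. Nuclear oxidative phosphorylation has 12 genes on the right and none on the left, and the mitochondrially encoded list has 12 on the left.

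Some whole-library measures followed the same division, while library totals and the number of genes detected overlapped between the sides. Mitochondrially encoded genes took 1.29, 0.784 and 1.11% of counts in Nrp1 high 2, low 1 and low 3, and 3.01, 2.38 and 1.57% in Nrp1 high 1, high 3 and low 2. The share of the single gene CT010467.1 was 0.834, 0.127 and 0.556% on the raised side and 1.60, 1.63 and 0.905% in Nrp1 high 1, high 3 and low 2. The members' own summed level, which the rule itself separates, was 29260, 34650 and 26940 CPM in Nrp1 high 2, low 1 and low 3. It was 15310, 17790 and 22340 CPM in Nrp1 high 1, high 3 and low 2. Nrp1 low 1 was the highest of all 6 libraries in 112 members (74.7%, against 25.3% of genes at 10 CPM or more), and Nrp1 high 1 the lowest in 110 (73.3%, against 1732 of the 8659 genes). These 2 libraries are at the ends of the first component, and the choice of the largest ratios leans such counts. Nrp1 low 2 was the highest library of its side in 114 members (76.0%, against 33.5% of those genes), and Nrp1 low 3 the lowest of the raised side in 111 (74.0% against 36.8%). The part that RNA quality or amplification had in the members' levels was not tested.

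**Figure D4:**
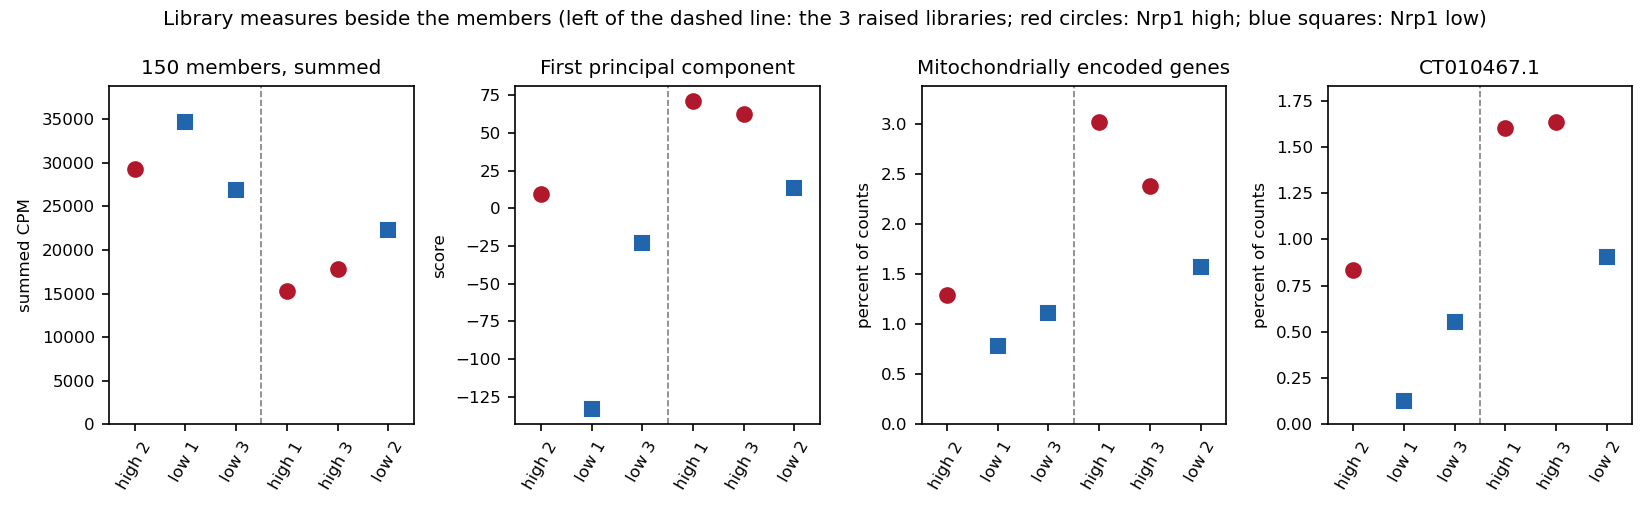
Summed CPM of the 150 members, score on the first principal component, and share of counts from mitochondrially encoded genes and from CT010467.1, with 1 point per library. The raised libraries stand left of the dashed line. The mitochondrial share is 0.784 to 1.29% on the left and 1.57 to 3.01% on the right.

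Markers of other cell types were examined by list, beside 11.2% raised and 22.9% lowered of all genes at 10 CPM or more. Summed erythroid markers were 4706, 4929 and 6072 CPM in Nrp1 high 2, low 1 and low 3 and 4575, 4078 and 3969 CPM in Nrp1 high 1, high 3 and low 2. Of 14 erythroid genes at 10 CPM or more, 3 were raised (the alpha globin genes Hba-a1 and Hba-a2, and the member Klf1, a factor of red cell precursors), and 2 were lowered (Tfrc and Ermap). B cell markers summed to 1102 to 1287 CPM on the raised side and 1061 to 1094 CPM on the other. Of 12 such genes at 10 CPM or more, 0 were raised and 1 was lowered (Ms4a1). Natural killer and innate lymphoid markers summed to 41.4 to 45.8 CPM and 31.3 to 40.5 CPM. Only 1 of those genes was at 10 CPM or more, and it was neither raised nor lowered. Stromal markers ran lower, at 615 to 1494 CPM against 1627 to 2780 CPM, but Vim, which monocytes also express, was the only one of them at 10 CPM or more. The collagen genes Col1a1 and Col1a2 were at 0 to 1.60 CPM on the raised side and 0 to 1.73 CPM on the other. T cell markers overlapped, at 101 to 112 CPM and 87.1 to 106 CPM, and Lck was the 1 raised gene of 3 at 10 CPM or more. Basophil, mast cell and eosinophil markers overlapped, at 124 to 211 CPM and 110 to 145 CPM, and Mcpt8 and Prss34, both of basophils, were the 2 raised genes of 5. Classical monocyte markers summed to 41040 to 47390 CPM and 33720 to 38050 CPM, most of it Lyz2. Of 17 such genes at 10 CPM or more, Lyz2 was the 1 raised, and 2 were lowered (Vcan and Itgam). Their list had a median log2 ratio of -0.03, so the higher sum is not a rise of these markers in general. No gene of these lists was at 0 in every library. The part that other cells had in the members' levels was not tested.

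The sorted fractions were compared with edgeR's quasi-likelihood test, adjusted over the 15541 genes tested. Since 2 Nrp1 low libraries and 1 Nrp1 high library form the raised side, the rule itself leans the members towards lower levels in Nrp1 high, and nothing is read from the direction. The rule also places Nrp1 high 2 above Nrp1 low 2 in every member by CPM. The fractions thus overlap in each member, which makes a call unlikely, and nothing is read from the number called. In this test 0 members were called lower and 0 higher in Nrp1 high at an adjusted p under 0.05, against 0.676% lower and 0.00643% higher of all genes tested. At an unadjusted p under 0.05, 19 members were lower and 0 higher, against 6.72% and 4.5% of all genes. DESeq2 and limma-voom also called 0 members. At an unadjusted p under 0.05, each had 31 members lower and 0 higher, against 4.68% and 5.44% of 25540 genes in DESeq2 and 7.46% and 8.54% of 15541 genes in limma-voom. The log2 fold change of Nrp1 high over Nrp1 low was negative in 149 members and positive in Gm45205, with a median of -0.60 beside 0.01 over all genes and a median standard error (SE) of 0.36. The lowest adjusted p of a member was 0.392, for Aldh3b1, an aldehyde dehydrogenase gene, with 216 ± 64.3 CPM over the Nrp1 high libraries and 379 ± 101 CPM over the Nrp1 low libraries (TMM-scaled, SD, n = 3 each, edgeR). Hsd3b7 averaged 31.4 ± 48.4 CPM over the Nrp1 high libraries and 64.3 ± 49.9 CPM over the Nrp1 low libraries (TMM-scaled, SD, n = 3 each), so that the spread within a fraction exceeded the difference between the fractions. H2-D1 had a log2 fold change of -0.69 (SE 0.34, edgeR adjusted p = 0.446).

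The fractions were also set beside each other within each side of the division, with 1 library in 1 arm of each and hence no test. These values are no independent readout. The same 6 libraries chose the members, and on the first component the Nrp1 low libraries of each side lie nearer than the Nrp1 high ones to the end on which all members load, so that the choice of members leans both signs. On the raised side, the median log2 ratio of Nrp1 high 2 over the mean of Nrp1 low 1 and low 3 was -0.03 over the members. On the other side, the median for the mean of Nrp1 high 1 and high 3 over Nrp1 low 2 was -0.38 over the members. Lower on both sides in Nrp1 high were 74 members, 5 were higher on both sides and 71 differed in sign, and nothing is read from these counts. Cfb, Prss34, Ptprcap and Atg101 were the members furthest down on both sides, by log2 ratios of -0.47 and -0.49 for Cfb, and -0.45 and -0.75 for Prss34, on the raised and the other side. B3galt4, a galactosyltransferase gene, was the furthest up, at 0.30 and 0.26.

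**Figure D5:**
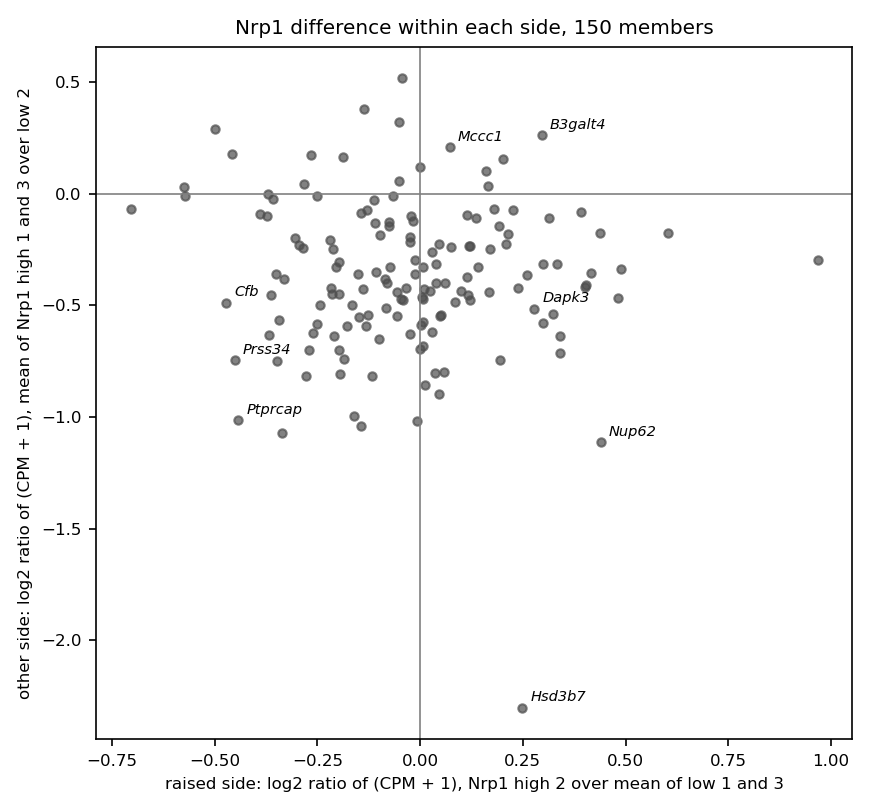
Log2 ratio of Nrp1 high over Nrp1 low for each of the 150 members, within the raised side (horizontal) and within the other side (vertical), 1 point per member. The lower left field holds 74 members and the upper right 5, and Hsd3b7 stands alone at the foot.

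The accessibility table is a readout from other libraries that the rule did not use. It is the authors' deposited table of 1 comparison, Nrp1 high against Nrp1 low as the labels name it, and has no value per library. A region that the authors assigned to the gene, within 3000 bases of its start, was listed for 102 members (68.0%, against 86.7% of genes at 10 CPM or more). Regions assigned to another gene were not counted, so a gene without one may still have a listed region near its start. Among protein-coding genes the shares were 78.4% of 125 members and 89.4% of 8296 genes. In the authors' deposited table the nearest region was higher in Nrp1 high at an FDR under 0.05 for 1 member and lower for 2, against 1.71% and 3.01% of the 7506 genes with a region. The authors' deposited log2 fold was positive in 51 members and negative in 51, with a median of 0.00 over members and -0.01 over all those genes. The members' shares of regions called were therefore close to those of all genes with a region.

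The 1 higher region lay over the start of Dapk3, a kinase gene of cell death and actin contractility, at chr10:81182690-81183089 (log2 fold 0.39, FDR 0.0138 in the authors' deposited table), and it covers the whole promoter printed above. Dapk3 RNA was 71.2, 57.7 and 59.4 CPM in Nrp1 high 2, low 1 and low 3, and 26.9, 35.2 and 44.8 CPM in Nrp1 high 1, high 3 and low 2. The lower regions lay over the starts of Rpap3, whose product helps to assemble RNA polymerases, and of Tubb6, a beta tubulin gene. Rpap3's region, at chr15:97705539-97705938, had a log2 fold of -0.65 and an FDR of 0.0332 in the authors' deposited table, and shares 166 bases with its promoter above. Tubb6's region had a log2 fold of -0.56 and an FDR of 0.0229 in the authors' deposited table. In RNA, edgeR gave log2 fold changes of -0.48 (SE 0.39) for Dapk3, -0.33 (SE 0.41) for Rpap3 and -0.70 (SE 0.40) for Tubb6, all with an adjusted p above the threshold (0.563, 0.707 and 0.471). The signs in RNA and accessibility were thus opposite for Dapk3 and alike for Rpap3 and Tubb6. The promoter regions of Hsd3b7, H2-D1, Ubb and Junb had FDR values of 0.547, 0.133, 0.316 and 0.544 in the authors' deposited table.

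Members were spread over the genome. Of 140 with coordinates, chromosomes 2 and 4 held 13 each, chromosome 11 held 12, and chromosomes 7 and 17 held 11 each. In total, 20 pairs of neighbouring members lay within 500 kb of each other. On chromosome 9, Cyb561d2, Rassf1 and Naa80 follow each other at gaps of 9241 and 18402 bases. On chromosome 8, Ier2, Klf1 and Junb are 239130 and 71618 bases apart, and on chromosome 17 H2-D1 and H2-Q1, in the major histocompatibility complex, are 53028 bases apart.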

How the data were processed

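Members and gene lists were chosen with earlier results of these data known, and the role groups after values were seen. The deposited RNA values are estimated counts per gene that the authors made; HISAT2, StringTie and build GRCm38 are among the entries, without versions, in the submitters' processing notes. All values were whole already, and the scale of a count is uncertain because such counts are derived from coverage. Read pairs were 2 × 150 bases, per the labels' protocols. For ATAC-seq, the authors' deposited table lists 40796 regions, each with its log2 fold, p-value and FDR; MACS2, DiffBind, edgeR and ChIPseeker are among the tools in those notes, and no depth per library is known.

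CPM used column totals. Nrp1 high and Nrp1 low were compared with edgeR 4.0.16 in R 4.3.3 (filterByExpr, TMM, robust quasi-likelihood test with the group as its term, Benjamini-Hochberg adjustment, threshold 0.05), after the fit was tested on simulated data. TMM-scaled CPM carry mean ± SD. The planned exact permutation tests of single members were not run, because these values chose the members. DESeq2 1.42.0 and limma 3.58.1 were alternatives. Motifs, spans and regions were counted with Python 3.11.15 and pandas 2.3.3. The accessibility count takes the region nearest each start, within 3000 bases, among the regions that the authors assigned to that gene. RefSeq coordinates are on GRCm38.p6.

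Named genes are the 20 members of largest ratio after leaving out predicted models, up to 4 members of each list, members with a region at an FDR under 0.05, the 3 members and 3 other genes nearest the threshold, up to 4 members per direction with the largest Nrp1 difference of 1 sign on both sides, and the 5 with the highest mean CPM. Other genes were chosen after their values were seen. The values of 2 members named by this rule are not reported here.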

Additional observations from a re-analysis of the deposited data

How the results depend on the processing

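Between Nrp1 high and Nrp1 low, 0 members were called in either direction under every alternative run: DESeq2, limma-voom, upper-quartile and RLE factors, scaling by totals, no count filter, a mean of at least 10 CPM, the replicate block and leaving out each library. Over all genes, the calls numbered 105 lower and 1 higher by edgeR, 312 and 81 by DESeq2, and 0 and 0 with the replicate block. The members' median log2 fold change was -0.60. It was -0.40 with library totals, which moved the median of all genes to 0.20, and -0.62 with the replicate block. Leaving out 1 library moved it between -0.93 (without Nrp1 high 2) and -0.35 (without Nrp1 low 1). Deviations of libraries with the same replicate number correlated at -0.24, -0.24 and 0.02, against -0.16 to 0.32 for those with different numbers. With 3 libraries per fraction, these values cannot show whether the numbers pair the libraries. For 12 single members, 0 of 168 alternative fits changed the sign and 0 passed the threshold. The rule itself leans these signs, so nothing is read from their stability. It also makes the fractions overlap in every member over the 6 libraries, so nothing is read from the absence of calls.

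Genes that met the rule numbered 968, but 1793 with TMM-scaled library sizes, under which 1599 ran the other way. That scaling moved the median log2 ratio of all genes at 10 CPM or more to 0.07, beside -0.09 with column totals. Raised genes then made up 52.9% of the separated genes, against 32.9% with column totals. All 150 members still met the rule, and 119 stayed among the first 150, against 111 with a minimum mean of 20 CPM, 116 with 5 CPM and 127 with a pseudocount of 5 CPM. The members' median ratio was 0.71, and 0.88 with that scaling. Leaving out 1 library gave 1050 to 1919 genes (1919 without Nrp1 low 3 and 1781 without Nrp1 low 2) and a median ratio of 0.62 to 0.83. Without mitochondrially encoded genes and CT010467.1 in the totals, 870 genes met the rule, and 145 members stayed among the first 150. With TMM-scaled sizes, 115 members were lower and 1 was higher in Nrp1 high within both sides, against 74 and 5, counts that the choice of members leans. The scaled comparison and the runs without a library were chosen after seeing the data. At an FDR under 0.01 in the authors' deposited table, 0 members had a higher and 0 a lower promoter region. With any region in the window counted, 2 were higher and 6 lower (2.19% and 4.61% of genes). The shares of member promoters with a GC box and a CCAAT box on the gene's strand alone were 52.0% and 40.2%, against 44.1% and 23.8% at 10 CPM or more. The lowest count of a member in any library was 33.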

Other observations

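Some gene groups followed the sorted fractions more closely than the division of the libraries. Neutrophil granule and maturity genes, such as those for lactoferrin and calprotectin, summed to 8212, 8791 and 7617 CPM in Nrp1 high 2, 1 and 3 and to 56650, 43270 and 63980 CPM in Nrp1 low 1, 2 and 3, so Nrp1 high 2 and Nrp1 low 2 lay with their own fractions. Genes of primary granules and progenitors summed to 5797 CPM in Nrp1 high 2, against 13340 CPM in Nrp1 low 2. None of the 20 and 17 genes of these lists was a member. A gene lower in Nrp1 high 2 than in Nrp1 low 2 cannot meet the rule, so nothing is read from that absence. Nrp1 itself had 93.4, 105 and 121 CPM in Nrp1 high 2, 1 and 3, and 18.0, 59.2 and 37.0 CPM in Nrp1 low 1, 2 and 3, and was not called (edgeR, log2 fold change 1.32, SE 0.36, adjusted p = 0.259).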
